A study of Homo sapiens with 32 samples.

Results

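Cyclin A2 (CCNA2), the CDK subunit CKS2, the CDK phosphatases CDKN3 and CDC25B and the ubiquitin-conjugating enzyme UBE2C were followed in ZR-75-1 xenografts during tamoxifen treatment. All probes that the study's gene list assigns to these 5 symbols were taken, which gave 9 of the 9912 probes on the arrays: 1 for CCNA2, 2 for CKS2, 2 for CDKN3, 1 for CDC25B and 3 for UBE2C. The list names 333 probes that the study had picked as changed on these same arrays, so a call on a named probe is not independent evidence of its direction. ZR-75-1 is an established human line of estrogen receptor-positive breast cancer, and it was grown under the skin of female nu/nu mice that all carried an estradiol (E2) pellet. Treated mice also carried a slow-release tamoxifen pellet, and their tumors were taken at day 1 (4 tumors, 2 mice), day 2 (2 tumors, 2 mice), day 4 (4 tumors, 3 mice), day 7 (4 tumors, 3 mice) and day 14 (2 tumors, 2 mice), which makes 16 tumors from 12 mice. Each tumor was hybridized in both dye orientations against 1 pool of RNA from E2-only xenografts of days 0, 1, 2 and 4. A log2 ratio of -1 therefore means that the tumor held 1 in 2 of the pool's signal, and 0 means no difference.

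The cell cycle is driven by cyclin-dependent kinases (CDKs), which are active only when bound to a cyclin and when inhibitory phosphates have been removed. Cyclin A2 is the cyclin of S phase and of the entry into mitosis. CDC25B removes inhibitory phosphates from CDKs at the entry into mitosis, CDKN3 removes the activating phosphate of the T-loop, and CKS2 is a small protein that binds CDKs and helps them to recognise phosphorylated substrates. UBE2C is an E2 enzyme that works with the anaphase-promoting complex (APC/C), the ubiquitin ligase that marks cyclin A2, cyclin B and other mitotic proteins for degradation. RNA of all 5 genes is known to be more abundant in dividing than in resting cells, and estrogen is known to drive the division of estrogen receptor-positive breast cancer cells, which tamoxifen opposes there.

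Many genes whose RNA peaks in G2 and mitosis carry a cell cycle genes homology region (CHR) and CCAAT boxes close to the start of transcription. The CHR is bound by complexes that repress such genes in resting cells and activate them in G2, and the CCAAT box is bound by NF-Y. The promoters of CCNA2, CKS2 and CDKN3 are shown because these 3 members carry both motifs. They are RefSeq sequences of GRCh38.p14 from 250 bases before to 50 bases after the annotated start, and windows were matched for 4 of the 5 members. Capitals mark CCAAT and the CHR forms TTTGAA and CTTGAA on either strand, so that ATTGG and TTCAAA are the reverse-strand forms, and no marked motif overlaps another. The windows are chr4:121823834-121824133 (minus strand) for CCNA2, chr9:89310945-89311244 (plus strand) for CKS2 and chr14:54396757-54397056 (plus strand) for CDKN3.
CCNA2: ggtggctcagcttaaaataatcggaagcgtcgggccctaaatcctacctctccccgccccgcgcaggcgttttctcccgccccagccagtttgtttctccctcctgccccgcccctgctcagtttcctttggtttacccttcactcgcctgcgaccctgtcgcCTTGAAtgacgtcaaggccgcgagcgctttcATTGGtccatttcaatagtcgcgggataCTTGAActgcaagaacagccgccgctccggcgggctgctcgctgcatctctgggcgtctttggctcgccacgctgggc
CKS2: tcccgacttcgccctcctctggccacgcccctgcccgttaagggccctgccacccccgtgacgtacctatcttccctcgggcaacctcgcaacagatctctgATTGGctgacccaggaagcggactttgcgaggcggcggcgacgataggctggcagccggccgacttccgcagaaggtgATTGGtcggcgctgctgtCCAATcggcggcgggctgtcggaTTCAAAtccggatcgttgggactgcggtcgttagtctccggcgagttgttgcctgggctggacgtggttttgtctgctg
CDKN3: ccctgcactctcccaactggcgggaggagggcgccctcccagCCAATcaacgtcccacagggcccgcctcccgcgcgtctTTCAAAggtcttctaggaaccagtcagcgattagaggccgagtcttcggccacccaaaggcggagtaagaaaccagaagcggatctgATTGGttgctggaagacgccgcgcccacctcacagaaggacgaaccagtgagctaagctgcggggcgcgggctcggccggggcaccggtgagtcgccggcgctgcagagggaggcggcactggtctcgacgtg
In these windows the motif nearest to the start was CTTGAA at -28 in CCNA2, the reverse form of TTTGAA at -29 in CKS2 and a reverse CCAAT at -83 in CDKN3, with the first base of the transcript counted as 1 and each motif placed by its first base. CCNA2 held 1 CCAAT box and 2 CHR forms, CKS2 held 3 and 1, and CDKN3 held 2 and 1. CDC25B has 4 annotated windows, of which 2 held a CCAAT box and 0 held either CHR form. Of all 35116 promoter windows, 34.6% held CCAAT, 23.9% held a CHR form and 9.23% held both, so the letters alone are common. The full estrogen response element GGTCANNNTGACC was in 0.057% of all windows and in none of the members' windows, which says only that these letters are not there. In the same build the genes lie at chr4:121816444-121823883 (CCNA2), chr9:89311195-89316703 (CKS2), chr14:54397007-54420218 (CDKN3), chr20:3786951-3806115 (CDC25B) and chr20:45812644-45816952 (UBE2C). The probes are cDNA clones, and the part of each transcript that a clone covers is not given in the sources used here.

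Member probes were of middle to high brightness. Their mean log2 intensity lay between 8.81 for CDKN3 121357_A (percentile 56.1 of all probes) and 11.72 for UBE2C 758484_A (percentile 93.1), and the median signal over local background lay between 5.52 and 25.3. The median over all spots of an array was 2.29 to 6.59, and the number of arrays limits the precision. The dyes of the scanner channels are not named in the files, so the direction is likely rather than certain. It was taken as channel 2 over channel 1 on forward arrays, because this correlates positively with the authors' table of ratios on all 16 forward arrays and is the direction in which the study's gene list runs. If the channels follow the numbering of the sample labels, every sign below turns. The dye-swap array titled day 4 replicate 4, which belongs to the tumor of day 4 replicate 3, was not used. Over all probes it correlated at r = 0.978 with the forward array of another tumor, day 4 replicate 2, and at r = 0.601 with that of its own tumor. Day 4 replicate 3 therefore rests on 1 orientation. Ratios of both orientations of a tumor were weakly correlated over all probes (median r = 0.058) and more closely over the 333 named probes (median r = 0.657). The named probes were picked as changed on these same arrays, so their closer match is not independent evidence of how well they were measured.

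All members were low at day 2 and day 14 and nearer to the pool at days 4 and 7. The median of the 9 probe means was -0.32, -0.84, -0.22, -0.28 and -0.88 by day, and the medians over all other 9903 probes stayed between -0.0049 and 0.0075. The share of single values below 0 was 34 of 36 at day 1, 18 of 18 at day 2, 30 of 36 at day 4, 34 of 36 at day 7 and 17 of 18 at day 14. At an adjusted p under 0.05 (limma, adjusted over 9912 probes), 5 of 9 member probes were lower than the pool at day 1, where 3.59% of all probes were. Day 2 had 7 of 9 (0.636% of all probes), day 4 had 0 of 9 (0.696%), day 7 had 1 of 9 (0.494%) and day 14 had 8 of 9 (2.96%). None was higher on any day, where 3%, 0.141%, 0.373%, 0.242% and 3.33% of all probes were higher over the same 5 days. At an unadjusted p under 0.05 the counts were 8, 9, 4, 7 and 8 of 9, where 21.6%, 14.3%, 16.1%, 11.5% and 19.5% of all probes passed in either direction. The pool is 1 sample whose own spread is not part of these tests, and it holds no E2-only tumors of days 7 and 14, so the time since implantation and the treatment cannot be told apart there. In RNA of whole tumors, fewer cells of a type and less RNA per cell cannot be told apart either.

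**Figure D1:**
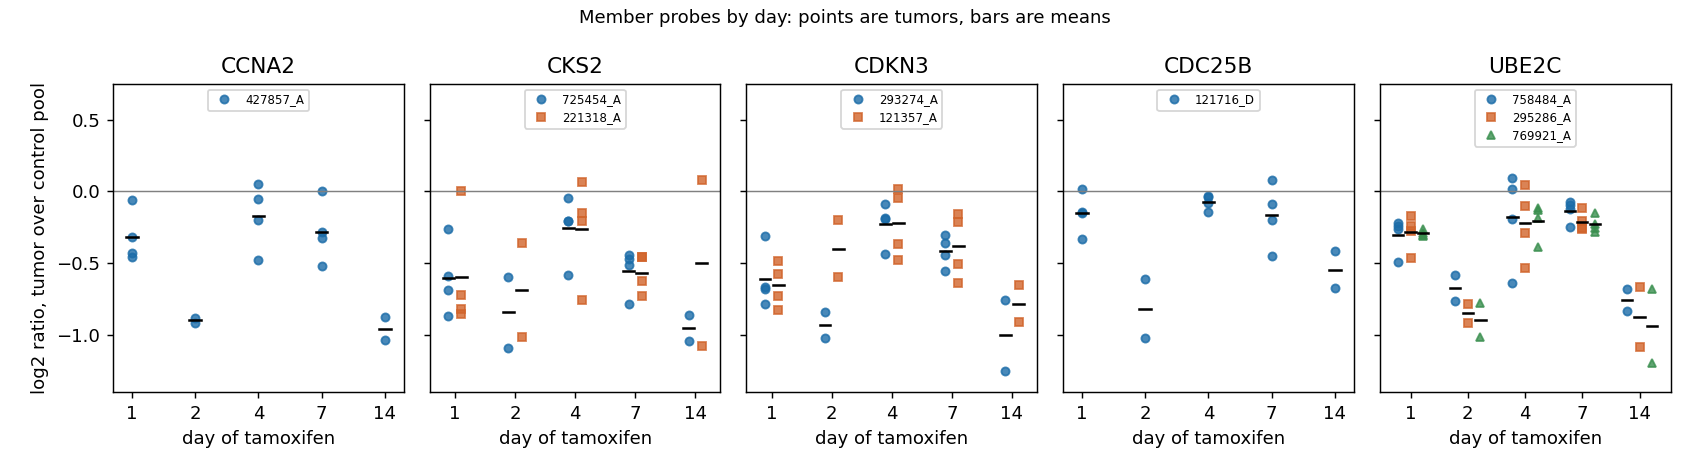
Log2 ratio of tumor over control pool (vertical axis) for each member probe by day of tamoxifen (horizontal axis), 1 panel per gene. Points are tumors (4, 2, 4, 4 and 2 by day), colours and shapes are probes, and bars are day means: for CCNA2 the points of days 2 and 14 lie below all others, while for both CKS2 probes and CDKN3 121357_A points of day 1 overlap with those of day 2, and CKS2 221318_A lies at 0.08 in day 14 replicate 1.

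The day counts depended on single tumors. At day 1, CKS2 221318_A and UBE2C 769921_A passed narrowly (adjusted p = 0.0498 and 0.0491, limma), and the count fell to 2 without day 1 replicate 1, to 3 without day 1 replicate 2 or 3, and to 3 when any tumor of day 7, or day 4 replicate 1 or 2, was left out. It was 8 without day 4 replicate 3. With 1 mean per mouse, where day 1 rests on 2 mice, it was 0. At day 2 the count was 1 without day 2 replicate 1, and at day 14 it was 0 without day 14 replicate 2, although 8 of the 9 values of the tumor that then remains, day 14 replicate 1, were below 0. The single call of day 7 was lost without any 1 of the 4 tumors of day 7 and without day 1 replicate 2 or day 4 replicate 1, while 2 probes passed without day 1 replicate 4 or day 4 replicate 3.

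CCNA2, read by probe 427857_A, was about 1 in 2 of the pool at days 2 and 14. Its log2 ratios were -0.06, -0.43, -0.46 and -0.32 in the tumors of day 1 and -0.92 and -0.88 in those of day 2. At day 4 they were -0.05, -0.20, -0.48 and 0.05, at day 7 -0.32, -0.29, -0.52 and 0.0015, and at day 14 -0.88 and -1.04. The ranges of days 2 and 14 lay below every tumor of days 1, 4 and 7. The day means were -0.32 ± 0.18 (SD, n = 4), -0.90 ± 0.03 (n = 2), -0.17 ± 0.23 (n = 4), -0.28 ± 0.21 (n = 4) and -0.96 ± 0.11 (n = 2), or 80.4%, 53.6%, 88.8%, 82.3% and 51.5% of the pool. CCNA2 passed as lower than the pool on days 2 and 14 (adjusted p = 0.00393 and 0.000566, limma), and days 1, 4 and 7 did not pass (adjusted p = 0.0697, 0.406 and 0.266).

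CDC25B, read by probe 121716_D, stayed close to the pool at days 1, 4 and 7 and was low at the same days as CCNA2. Its values were -0.33, -0.15, 0.01 and -0.14 at day 1 and -1.02 and -0.61 at day 2. They were -0.03, -0.04, -0.08 and -0.14 at day 4, -0.45, -0.20, -0.09 and 0.08 at day 7, and -0.42 and -0.67 at day 14. The groups of days 2 and 7 did not overlap, but day 7 replicate 1 lay below day 14 replicate 1. CDC25B averaged -0.82 ± 0.29 at day 2 (56.8% of the pool, adjusted p = 0.00455, n = 2) and -0.55 ± 0.18 at day 14 (68.5%, adjusted p = 0.0184, n = 2, limma). In day 2 replicate 1 its dye-swap spot carried the mark 2, whose meaning is not stated, and read -1.43 at 2.21 times the background. The forward spot of that tumor read -0.61. Without spots of the mark 2, a setting added after the values were seen, the day 2 value of CDC25B was -0.59. It was then not called (adjusted p = 0.0832, limma), nor was it with the authors' table of ratios. At days 1, 4 and 7 CDC25B averaged -0.15 ± 0.14, -0.07 ± 0.05 and -0.17 ± 0.22 (SD, n = 4 each), the member nearest to the pool on each of these days.

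CKS2 was the member with the lowest mean at days 4 and 7 and was already low at day 1. At day 4 this rank rests on replicate 3, the tumor with the forward orientation only (CKS2 -0.67, CDKN3 -0.33, means of each gene's probes). In the other tumors of day 4 CKS2 had -0.18, -0.21 and 0.0094, and CDKN3 had -0.22, -0.21 and -0.12. The brighter CKS2 probe, 725454_A, read -0.87, -0.69, -0.59 and -0.27 at day 1 and -0.60 and -1.09 at day 2. It read -0.20, -0.20, -0.58 and -0.05 at day 4, -0.44, -0.47, -0.78 and -0.52 at day 7, and -0.86 and -1.04 at day 14. All 16 tumors were below the pool by this probe, and every tumor of day 7 lay below 3 of the 4 tumors of day 4. Its means were -0.60 ± 0.25, -0.84 ± 0.35, -0.26 ± 0.23, -0.55 ± 0.16 and -0.95 ± 0.13 (SD, n = 4, 2, 4, 4 and 2). It was lower than the pool at day 1 (adjusted p = 0.00492), day 2 (0.0121), day 7 (0.0282) and day 14 (0.0013, limma), which made it the only member probe called at day 7. The second probe, 221318_A, averaged -0.60, -0.69, -0.26, -0.57 and -0.50 over the days and passed only at day 1.

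The CKS2 probes matched within 0.25 in 14 of 16 tumors and parted in the others. In day 14 replicate 1, probe 221318_A read 0.08 and probe 725454_A read -0.86, and in day 1 replicate 4 they read 0.01 and -0.27. Both of these values of 221318_A include a spot to which the file gives the mark 2, with a signal of 1.43 and 2.53 times the local background against a median of 17.6 for this probe. The third such spot of the probe, in day 7 replicate 4 (1.79 times background), gave -0.73 where the other probe read -0.52. Without spots of the mark 2, a setting added after the values were seen, probe 221318_A gave -0.75 at day 14 (adjusted p = 0.0746, limma).

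CDKN3 was the member with the lowest mean at day 1. Probe 293274_A read -0.79, -0.67, -0.68 and -0.31 at day 1, -0.84 and -1.02 at day 2 and -0.09, -0.43, -0.19 and -0.19 at day 4. It read -0.55, -0.30, -0.44 and -0.36 at day 7 and -0.76 and -1.25 at day 14. Every tumor was below the pool by this probe, and it is the member probe for which both orientations were below 0 in all 15 tumors measured both ways. Its means were -0.61 ± 0.21, -0.93 ± 0.13, -0.22 ± 0.15, -0.42 ± 0.11 and -1.0 ± 0.35 (SD, n = 4, 2, 4, 4 and 2). It was lower than the pool at day 1 (adjusted p = 0.00179), day 2 (0.00303) and day 14 (0.000292), and day 7 missed the threshold (0.0556, limma).

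The second CDKN3 probe, 121357_A, was called on days 1 and 14 but not on day 2. It read -0.82, -0.73, -0.49 and -0.58 at day 1, where both probes were called, and averaged -0.65 ± 0.15 (SD, n = 4, adjusted p = 0.00241, limma). At day 2 it read -0.20 and -0.60, against -0.84 and -1.02 by the first probe, and was not called (adjusted p = 0.233). At day 14 it averaged -0.78 ± 0.18 (SD, n = 2) and was called (adjusted p = 0.00427). The 2 probes were within 0.25 in 9 of 16 tumors. Their gap was widest in day 2 replicate 1, and in day 4 replicate 2 the second probe read 0.014 where the first read -0.43. In the tumors of day 2 its forward spots read 0.11 and -0.14 at 1.82 and 2.70 times the background, and its dye-swap spots read -0.51 and -1.05.

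**Figure D2:**
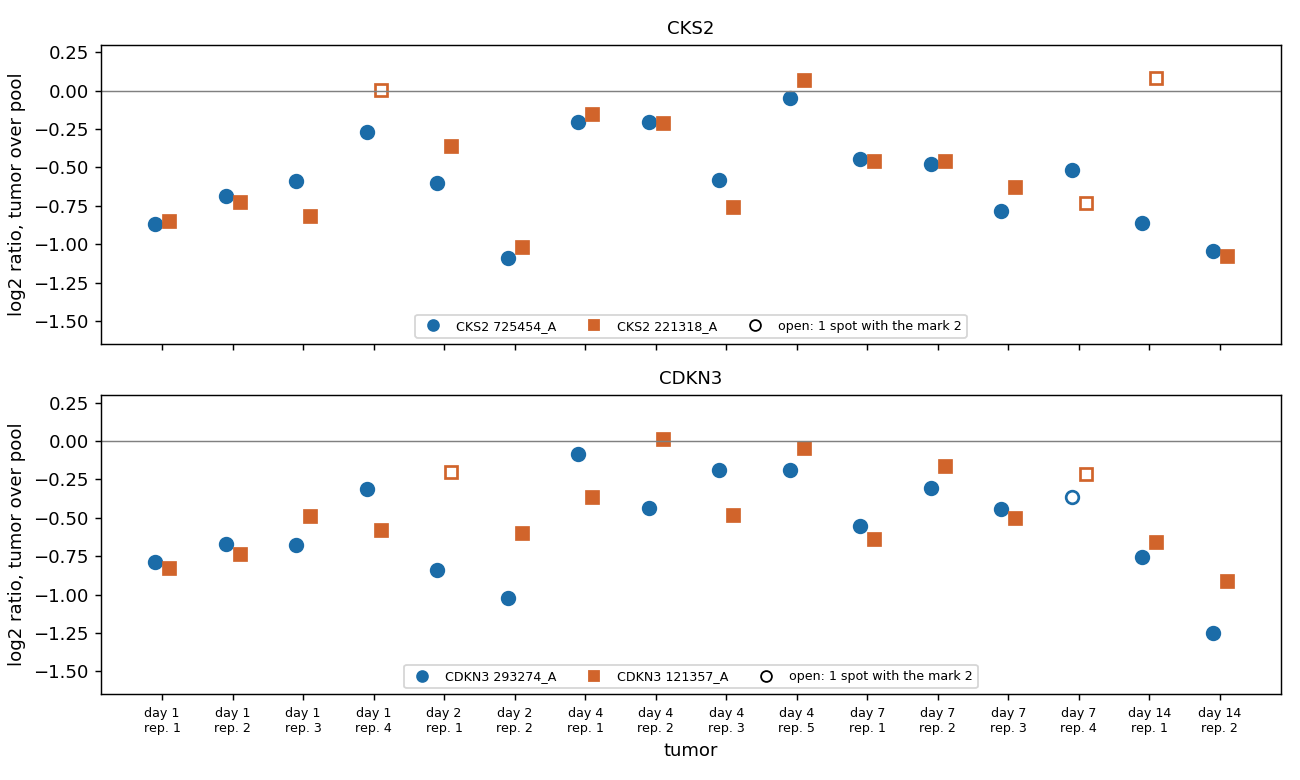
Log2 ratio of tumor over control pool (vertical axis) by tumor (horizontal axis) for both probes of CKS2 (upper panel) and of CDKN3 (lower panel). Open symbols have 1 spot with the mark 2: the open squares of CKS2 221318_A lie at 0.01 in day 1 replicate 4 and 0.08 in day 14 replicate 1, above the circles of 725454_A at -0.27 and -0.86, and the one in day 7 replicate 4 lies at -0.73, below the circle at -0.52.

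UBE2C had 3 probes, which were low on the same days. Probe 769921_A read -0.26, -0.29, -0.30 and -0.31 at day 1, the tightest group of any member probe on that day, and -0.78 and -1.02 at day 2. It read -0.13, -0.11, -0.39 and -0.19 at day 4, -0.15, -0.23, -0.25 and -0.28 at day 7, and -0.68 and -1.20 at day 14. The tumors of days 2 and 14 lay below every tumor of the other days by this probe. Its means were -0.29 ± 0.02, -0.90 ± 0.17, -0.21 ± 0.13, -0.23 ± 0.06 and -0.94 ± 0.36 (SD, n = 4, 2, 4, 4 and 2), and it was called at day 1 (adjusted p = 0.0491), day 2 (0.00156) and day 14 (0.000187, limma). Probes 758484_A and 295286_A averaged -0.67 and -0.85 at day 2 and -0.76 and -0.88 at day 14. Both were called at these days (adjusted p = 0.0298 and 0.00393, then 0.00352 and 0.000711) and at no other. The 2 most similar probes, 295286_A and 769921_A, were within 0.25 of each other in 16 of 16 tumors. By the mean of its probes UBE2C was at 81.5%, 57.2%, 86.9%, 87.6% and 55.1% of the pool by day.

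Between days, the members differed in 1 direction, but few differences passed. The members come from a cluster that the study made from these same profiles. The direction between days and the unadjusted counts are therefore not independent evidence. Whether levels of days 4 and 7 differed from those of days 1 and 2 was tested as 1 contrast, which does not contain the pool. All 9 probes had a positive difference, between 0.23 for CDKN3 121357_A and 0.45 for CDKN3 293274_A. None passed at an adjusted p under 0.05 (lowest adjusted p = 0.381, limma), where 0% of all probes did, and 7 passed unadjusted, as did 7.25% of all probes. Day 14 minus the mean of days 4 and 7 was negative for all 9 probes, between -0.73 for CCNA2 and -0.08 for CKS2 221318_A. UBE2C 769921_A passed (-0.72, 95% interval -1.0 to -0.44, adjusted p = 0.0274), where 0.0706% of all probes were called lower, and 8 passed unadjusted, against 11.6% of all probes. CCNA2, CDKN3 293274_A and UBE2C 295286_A came next (adjusted p = 0.0636, 0.0695 and 0.0695). The call was lost without day 1 replicate 2 or 3, day 7 replicate 1 or 3, or day 14 replicate 2, and 4 probes passed without day 4 replicate 3. The F-test over the 5 days called 0 member probes (lowest adjusted p = 0.0642 for UBE2C 769921_A), where it called 0.0807% of all probes, and 8 of 9 passed unadjusted, with 10% of all probes. It called 1 without day 4 replicate 3 or without day 14 replicate 1.

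Day 2 minus day 1, a contrast added after the day means were seen, was -0.66 for CDC25B (95% interval -1.01 to -0.32), -0.58 for CCNA2 (-0.95 to -0.22) and -0.60 for UBE2C 769921_A (-0.91 to -0.29). It was -0.24 for CKS2 725454_A (-0.64 to 0.16) and -0.32 for CDKN3 293274_A (-0.67 to 0.03). CKS2 221318_A gave -0.09 (-0.73 to 0.54), and CDKN3 121357_A was the 1 probe with a positive difference, 0.25 (-0.14 to 0.65). The CDC25B difference includes the day 2 spot with the mark 2. Of the 9 probes, 5 passed unadjusted, where 7.61% of all probes did, and 0 after adjustment (lowest adjusted p = 0.616, limma), where 0% of all probes did.

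**Figure D3:**
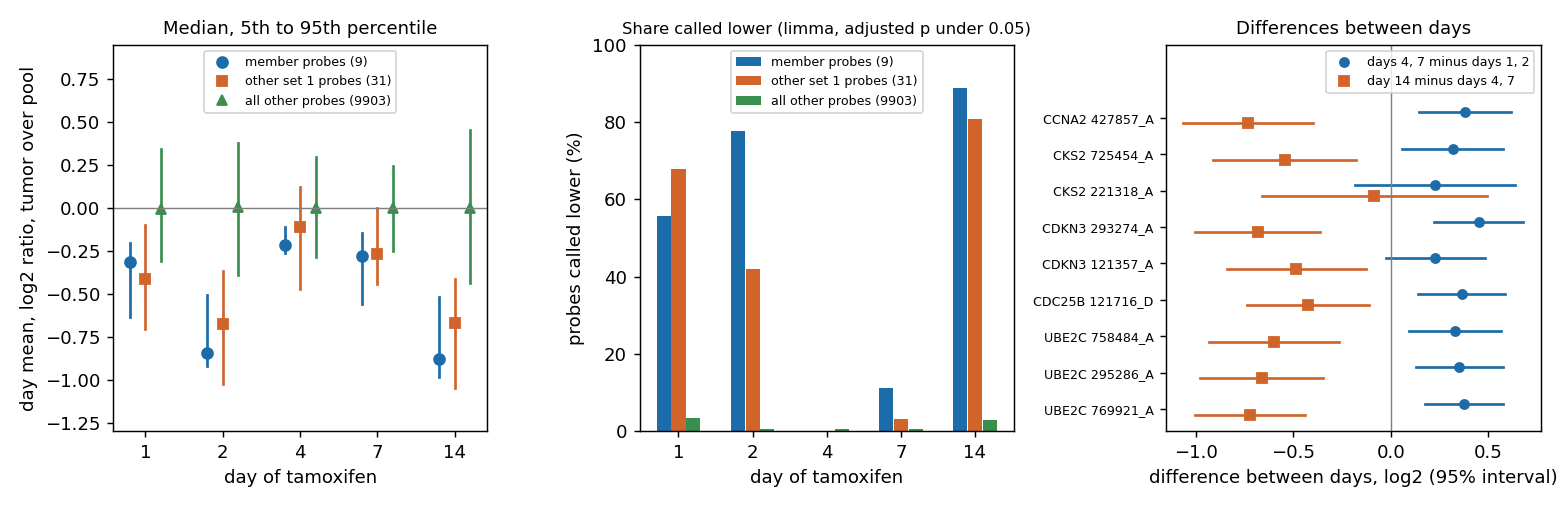
Left, median and 5th to 95th percentile of the day means (log2 ratio, tumor over pool) of the 9 member probes, the 31 other probes of the study's first cluster and the 9903 probes that are not members. Middle, the percentage of each called lower (limma, adjusted p under 0.05), and right, the difference between days per member probe with its 95% interval: all 9 circles lie right of 0 and all 9 squares left of it.

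The members could be ordered within each day, and the order was not the same on all days. At day 1 CDKN3 (-0.63) and CKS2 (-0.60) were lowest, ahead of CCNA2 (-0.32), UBE2C (-0.30) and CDC25B (-0.15), as means of each gene's probes. At day 2 CCNA2 was lowest (-0.90), followed by CDC25B (-0.82), UBE2C (-0.81), CKS2 (-0.77) and CDKN3 (-0.67), and at day 14 the order was CCNA2 (-0.96), CDKN3 (-0.89), UBE2C (-0.86), CKS2 (-0.72) and CDC25B (-0.55). Each gene differed from its neighbour in these 3 orders by less than the larger of their SDs between tumors. The mean of CKS2 and CDKN3 minus the mean of the other 3 genes, a split chosen after its values were seen and therefore not tested, was -0.57, -0.43, -0.42 and -0.04 in the tumors of day 1. It was -0.12, -0.08, -0.14 and -0.016 at day 4 and -0.22, -0.13, -0.30 and -0.42 at day 7, negative in 4 of 4 tumors on each of these 3 days. At day 2 it was 0.38 and -0.14 and at day 14 0.11 and -0.15, with both signs on each day. CKS2 and CDKN3 thus averaged -0.62 at day 1, against -0.25 for the other 3 genes, and -0.72 at day 2, against -0.84.

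Tumors differed in how low all members were. The mean over the 5 genes was -0.49, -0.45, -0.39 and -0.26 at day 1, -0.73 and -0.85 at day 2 and -0.13, -0.16, -0.42 and -0.04 at day 4. It was -0.39, -0.27, -0.41 and -0.20 at day 7 and -0.61 and -0.98 at day 14. Day 4 replicate 3, the tumor with the forward orientation only, was the lowest tumor of day 4. In the tumors measured both ways, forward ratios lay below the mean of both orientations for every member probe but CDC25B (-0.30 to -0.13). How far this lowers the value of day 4 replicate 3 was not tested. The mean absolute difference over the 5 genes had a median of 0.20 between tumors of the same mouse and day (4 pairs) and of 0.23 between tumors of different mice of a day (16 pairs). Across the 16 tumors the correlation of a gene with the mean of the other 4 members was 0.91 for UBE2C, 0.82 for CCNA2, 0.81 for CDKN3, 0.68 for CDC25B and 0.63 for CKS2. After the day means had been taken off it was 0.78 for UBE2C and CDKN3, 0.62 for CKS2, 0.36 for CCNA2 and 0.05 for CDC25B. These are descriptions over tumors that share the pool and the array platform.

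The orientation of the dyes shifted the members' ratios. Over the 15 tumors measured both ways, forward ratios were lower than dye-swap ratios in 15 tumors for CKS2 725454_A, in 14 for UBE2C 758484_A and 769921_A and in 13 for CCNA2. Relative to the mean of both orientations, the forward ratio lay at -0.30 to -0.13 for 8 of the probes and at -0.0033 for CDC25B. On forward arrays alone, 8, 7, 2, 8 and 8 probes passed as lower by day. On dye-swap arrays alone the counts were 0, 2, 0, 0 and 5 (limma, both settings added after the values were seen). The share of all probes called was not recorded for either setting, so these counts cannot be set against it. On dye swaps alone the day 4 values of 7 probes were above 0, between 0.01 for CDC25B and 0.17 for UBE2C 758484_A. The sign of these day 4 values depends on the forward arrays. On dye swaps, day 1 means were -0.05 for CCNA2 and -0.02, -0.03 and -0.08 for UBE2C 758484_A, 295286_A and 769921_A. The other member probes lay between -0.52 and -0.15 there. At day 7 UBE2C 758484_A was at 0.11 on dye swaps alone, and the others were below 0. At days 2 and 14 the means of all 9 probes were below 0 in each orientation, but not all by much. The forward mean of CDKN3 121357_A at day 2 was -0.02. The forward spots of CKS2 221318_A at day 14 read 0.58 and -1.14.

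**Figure D4:**
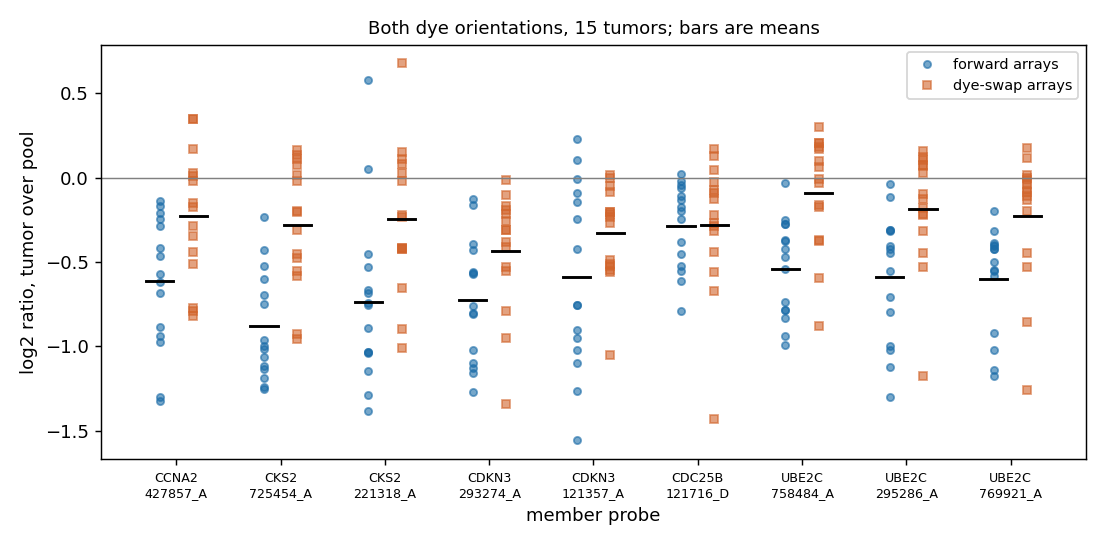
Log2 ratio of tumor over control pool (vertical axis) for each member probe (horizontal axis), forward arrays as circles and dye-swap arrays as squares, for the 15 tumors measured both ways. Bars are means: the forward mean lies below the dye-swap mean for 8 probes, and the 2 means nearly coincide for CDC25B.

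The genes whose brightest probe varied most like the mean of the 5 members over the 16 tumors were ZWINT (r = 0.95), BUB1B (0.93), SVIL (0.91), STMN1 (0.90), EBP (0.90), NEK2 (0.86), DLG7 (0.86), NMU (0.84), AURKA (0.83) and TACC3 (0.81). They were ranked among 248 named genes, and all 10 belong, with the members, to the first of 6 clusters of the study's list, which was itself made by clustering these profiles. ZWINT and BUB1B act at the kinetochore and its checkpoint, NEK2, AURKA and TACC3 at the spindle poles, DLG7 on spindle microtubules and STMN1 on microtubule dynamics. EBP is a sterol isomerase of cholesterol synthesis, SVIL an actin-binding protein and NMU a secreted peptide. The 5 day means of BUB1B were -0.50, -0.87, -0.19, -0.21 and -0.79. At the other end stood WDR45 (r = -0.74), PBXIP1 (-0.74), which encodes a protein that binds estrogen receptors, and SBF1 (-0.78).

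Against the other 31 probes of that cluster the members were not set apart at every day. Members had 5, 7, 0, 1 and 8 of 9 probes lower by day, and the others had 21, 13, 0, 1 and 25 of 31. The medians were -0.32, -0.84, -0.22, -0.28 and -0.88 for the members and -0.41, -0.68, -0.11, -0.27 and -0.67 for the others. The difference was not tested, since both were chosen on these arrays.

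Other genes of the pathway were read from lists of symbols, of which only those named in the study's list can be seen. The study picked these genes as changed on these same arrays, so their counts of calls are not independent evidence. Over all probes, 3.59%, 0.636%, 0.696%, 0.494% and 2.96% were called lower by day. The lists overlap, so their counts are not separate results. NEK2, DLG7, AURKA, TACC3, FOXM1 and CENPF count both as APC/C substrates and as mitosis genes. RRM2, TK1 and GMNN count both as substrates and as replication genes. BUB1B counts in the APC/C and mitosis lists, and FOXM1 also among the transcription factors. Of 34 cyclins, CDKs and their regulators, 4 are named and all 4 are members, so cyclins B, D and E, CDK1 and the CDK inhibitors of the p21 family are not seen here. Of 22 APC/C subunits, activators, inhibitors and ubiquitin enzymes, 2 are named, UBE2C and the checkpoint kinase BUB1B, and BUB1B was lower at days 1, 2 and 14 (adjusted p = 0.00985, 0.00642 and 0.00365, limma). Of 9 further APC/C substrates, the numbers lower by day were 6, 4, 0, 1 and 7, with medians of -0.38, -0.68, -0.09, -0.24 and -0.65. Among them NEK2, a centrosome kinase, averaged -0.37 ± 0.12 at day 1 and -1.11 ± 0.07 at day 2 (adjusted p = 4.06e-05, limma). It was also the gene called at day 7 (-0.38 ± 0.13, adjusted p = 0.0282). RRM2, the small subunit of ribonucleotide reductase, was lower on days 1 and 14 (-0.52 ± 0.11 and -0.81 ± 0.09, adjusted p = 0.000599 and 0.00014) and had -0.33 ± 0.02 at day 2, which did not pass. DLG7 was lower on days 2 and 14 (-1.03 ± 0.27 and -0.74 ± 0.22, adjusted p = 0.00099 and 0.00238), and AURKA on days 1, 2 and 14 (-0.43, -0.72 and -0.54). These SDs are over 4 tumors at days 1 and 7 and 2 at days 2 and 14.

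Of the 13 named mitosis genes, 7, 6, 0, 1 and 10 were lower over the 5 days, and their medians were -0.35, -0.68, -0.09, -0.23 and -0.65. Of all probes, 3.59%, 0.636%, 0.696%, 0.494% and 2.96% were lower, and the genes of these lists had been picked as changed on these arrays. PRC1, which bundles microtubules of the midzone, was lower at day 14 only (-0.97 ± 0.02, SD, n = 2, adjusted p = 0.000278, limma). NUMA1, a spindle-pole protein, was the 1 mitosis gene that was higher, at day 1 (0.60 ± 0.16, SD, n = 4, adjusted p = 0.0278), and it is named for that call. The 9 named genes of DNA replication and nucleotide supply gave 7, 0, 1, 0 and 7 lower. At day 2, where none was called, their means lay between -0.61 and -0.20. MCM6, a subunit of the replicative helicase, was lower at days 1, 4 and 14 (-0.71, -0.39 and -0.53). CTPS, which makes CTP, was lower at day 1 only (-0.66 ± 0.15, SD, n = 4, adjusted p = 0.000558), and KIAA0101, a PCNA-associated factor, was lowest at day 14 (-1.08 ± 0.12, SD, n = 2, adjusted p = 0.000489). The day 1 median was -0.32 for the members and -0.52 for the replication genes. At day 2 the order was the reverse, with -0.84 for the members and -0.38 for the replication genes. The difference was not tested, since both groups were chosen on these arrays, and day 2 has 2 tumors. Of the transcription factors, MYBL1 was lower on all 5 days (-0.78, -0.92, -0.59, -0.51 and -0.71), and FOXM1, which activates G2 and mitosis genes, was lower at days 1, 2 and 14 (-0.38, -0.68 and -0.60). MYBL2, which takes part in activating genes through the CHR, was lower on days 2 and 14 (-1.0 ± 0.75 and -1.16 ± 0.51, SD, n = 2 each, adjusted p = 0.0364 and 0.00372). MYB was called on no day.

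The markers of cell types gave the following beside these results. The tumor line is human and the host is a mouse, so fibroblasts, vessels and blood of the host are mouse cells. Whether the probes below read host cells or the tumor cells themselves was not tested. Of 18 luminal epithelium markers, 8 are named. TFF1 and TFF3, which estrogen induces in breast cancer cells, were lower on all 5 days (TFF1 -1.27, -1.43, -1.10, -1.12 and -2.11, TFF3 -0.78, -1.31, -1.10, -1.14 and -1.94). CLDN4 was higher at day 1 (0.88) and CD24 at day 14 (1.24, adjusted p = 0.000657 and 0.00159, limma), so epithelial markers moved in both directions. Of 13 fibroblast and matrix markers, MGP, LGALS1 and FN1 are named, and all 3 were lower at day 14 (-1.15, -0.68 and -0.61) and at no other day. These 3 had been picked as changed on these arrays, and 2.96% of all probes were lower at day 14. The part of these markers in the day 14 values of the members was not tested. Of 9 erythroid markers, 2 probes are named, at a median of -0.80, -0.98, -1.13, 0.12 and -1.02 by day, and their part was not tested either. None of 7 endothelium and 8 leukocyte markers is named.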

How the data were processed

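RNA of 16 ZR-75-1 xenografts treated with E2 and tamoxifen was set against RNA pooled from E2-only xenografts on 32 spotted arrays that read 2 dyes. The deposited intensity values are spot and local background brightness per channel, as the scanner gave them and not normalized. The deposited log2 values are ratios of each array, which the authors made with limma (version not given in the sources used here) with background correction and normalization within (loess) and between (quantile) arrays. That table was used only as an alternative, and its base of 2 and turned dye swaps were read from a comparison with the scanner values. Its column medians lay between -0.0083 and 0.011.

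The analysis used R 4.3.3, limma 3.58.1 and statmod 1.5.0. Each array held 1 to 393 spots with the mark 0, whose meaning is not stated, and these were removed. Background was corrected by normexp with an offset of 50, followed by loess within and quantile normalization between arrays. Dye-swap ratios had their sign turned before the mean of both arrays of a tumor was taken. lmFit estimated a mean for each day, with tumors of a mouse treated as correlated (duplicateCorrelation, 0.0206), followed by eBayes and Benjamini-Hochberg adjustment over 9912 probes. All adjusted p values are from limma, and p values measure the spread between tumors, not that of the pool. The fit was tested on simulated data with known changes.

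The members, the gene lists and the tests were chosen with earlier results of these data known. Names come from the study's list. All member probes are named, with up to 4 genes per list by smallest adjusted p on any day, and the 10 most and 3 least similar genes by Pearson r with the mean of the 5 members. NUMA1 falls outside this rule. Lists covered cyclins and CDK regulators, the APC/C, its substrates, mitosis, DNA replication, transcription factors of the E2F and MYB families with FOXM1, and luminal, fibroblast, endothelium, leukocyte and erythroid markers. Promoters come from RefSeq (GRCh38.p14). Alternatives covered background, normalization, spot marks, dim probes, mouse block, samples in the fit, dye, array weights, the left-out array, the authors' table, the replicate number and leaving out each tumor.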

Additional observations from a re-analysis of the deposited data

Results flagged for a closer look

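In day 1 replicate 4, CKS2 221318_A (0.0054) stood far above the other 3 tumors of day 1 (-0.85, -0.72 and -0.82), with a gap of 0.850 of the group's range. In day 1 replicate 1, UBE2C 758484_A (-0.50) stood below the other 3 tumors (-0.24, -0.22 and -0.27), with a gap of 0.840 of the range. Among 27 groups of 4 tumors looked at, 2 had such a gap, and chance alone gives about 1 in 20. UBE2C 769921_A was lower at day 14 than at days 4 and 7 (-0.72, adjusted p = 0.0274, limma), the single difference between days that passed among the member probes. Over its alternatives this adjusted p lay between 0.000107 and 0.509.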

How the results depend on the processing

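Counts of member probes lower than the pool at day 1 (5 as reported) were 8 with no background correction, with dim probes left out, with only the tumors of that day, with single arrays and a dye term, with array weights and on forward arrays only. They were 3 with scale normalization, with mark 0 spots kept, with the left-out array used and with the replicate block, and 0 with 1 mean per mouse and on dye-swap arrays only. At day 2 (7) the counts were 0 with only that day's tumors, 3 with the replicate block and 2 on dye swaps only. At day 4 (0) forward arrays only gave 2. At day 7 (1) the count was 2 with plain subtraction, no normalization between arrays or no dim probes, 3 with the dye term or array weights, 8 on forward arrays only, and 0 with 1 mean per mouse, only that day's tumors, the left-out array, the authors' table with or without the doubtful array, the replicate block and dye swaps only. At day 14 (8) dye swaps only gave 5. For day 14 minus days 4 and 7 (1) the counts were 2 with no background correction or the replicate block, 4 with plain subtraction, scale normalization, no dim probes, the left-out array or the authors' table, 5 with that table without the doubtful array, 6 with the dye term or array weights, and 0 with 1 mean per mouse, only the days compared, marks 0 and 2 left out, forward or dye-swap arrays only. For days 4 and 7 minus days 1 and 2 (0) the dye term gave 1. The F-test over days (0) gave 1 with no background correction, plain subtraction, no dim probes or the left-out array, 7 with the dye term and 4 with array weights. The cause was not tested, except that fewer samples enter where days or orientations are left out, and single arrays count a tumor as 2 values. Median centring and a fit without the mouse block moved no count by over 1.5 times. Leaving out mark 2, single orientations and the authors' table without the doubtful array were chosen after the values were seen. The share of all probes called was recorded for the main fit only. The counts under the alternatives, leaving out a tumor included, therefore have no such share beside them.

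Leaving out 1 tumor at a time gave 2 to 8 at day 1, 1 to 7 at day 2, 0 to 0 at day 4, 0 to 2 at day 7, 0 to 8 at day 14, 0 to 4 for day 14 minus days 4 and 7, 0 to 1 for the F-test and 0 to 0 for days 4 and 7 minus days 1 and 2. Of 2205 recomputed values of single probes, 12 turned sign, 110 lost a call and 84 gained one. On dye swaps only, the sign turned for day 4 of CCNA2 (0.14), CKS2 725454_A (0.090), CKS2 221318_A (0.11), CDC25B (0.013), UBE2C 758484_A (0.17), 295286_A (0.021) and 769921_A (0.040), day 7 of UBE2C 758484_A (0.11) and day 14 minus days 4 and 7 of CDKN3 121357_A (0.065). Leaving out 1 tumor gave CKS2 221318_A -1.08 to 0.080 at day 14, and -0.66 to 0.49 for day 14 minus days 4 and 7, both highest without day 14 replicate 2, and that difference was 0.39 on forward arrays only. No other setting turned a sign of a member probe.

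Replicate numbers did not pair tumors across days. Deviations from the day means correlated at a mean r of 0.010 between tumors of the same number (24 pairs, -0.17 to 0.18) and -0.0034 between others (76 pairs). With the replicate block, day 1 had 3 calls and day 2 had 3.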
